A study of Rattus norvegicus with 16 samples.

Results

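Gene expression was compared between cultured rat hippocampal neurons exposed to hydroxyurea for 2 h and the same kind of culture left untreated. The members are the 3 samples titled as 2 h of hydroxyurea and the 3 control samples, so 6 of the 15 samples in the series and 7 of its 16 arrays, because untreated replicate 1 was hybridised on 2 arrays whose values were averaged and counted as 1 sample. Per the labels, neurons came from the brains of Sprague-Dawley rats at embryonic age E18 and were grown in Neurobasal medium with B27, and treated cultures received hydroxyurea at 5 µM for 2 h. Before the drug was added, the medium was replaced by one whose B27 had no antioxidants. Whether the untreated cultures were in that medium for as long is not stated, so the groups are not known to be matched in time. The extraction protocol speaks of hippocampal tissue although the other labels speak of cultured primary neurons, and the day of culture is given differently in different fields. No label says whether replicates were separate cultures. P-values therefore refer to the spread among these 6 and the other samples in the fit, and that spread may be technical.

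Hydroxyurea inhibits ribonucleotide reductase, the enzyme that makes deoxynucleotides, by quenching a radical in its small subunit, and it stalls replication forks in dividing cells. Neurons no longer divide, and in them the drug can also act as a donor of nitric oxide and as a ligand of iron. A few hours of stress or of synaptic activity are enough for immediate early genes such as Fos, for targets of the hypoxia factor HIF and for targets of the antioxidant factor NRF2 to change at the RNA level in neurons.

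Values are log2 of the background-subtracted spot signal minus the 75th percentile of the same array, so a value of 0 is the level of a probe at that percentile. Differences are 2 h minus untreated on this scale, and a difference of 1 is a doubling. A probe is called above background where the scanner software flagged its signal as well above the local background. After a filter on dim probes 18110 features were tested, 11083 of them named genes. On the 7 arrays no spot was saturated and between 64.7% and 70.4% of probes were above background. The number of arrays limits the precision: the median standard error (SE) of a difference was 0.16, so a typical 95% interval reached 0.35 to either side, or 1.27-fold.

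The array of untreated replicate 1 on the first slide stood apart. Of its bright spots more than 1 log2 unit below the median of the 16 arrays, 91.7% (1013 spots) lay in 44 of 672 rectangular blocks, mostly in one patch at an edge. A block held 12 rows and 8 columns of spots and was called dim where over 10% of its bright spots, those with a median above -4, were that low. The second array, titled as a repeat of the same replicate, had 1 such block, and the arrays of untreated replicates 2 and 3 and of the 3 samples at 2 h had 0. Differences that rest on that patch are given below also with the dim blocks left out, a choice made after seeing the data.

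**Figure D1:**
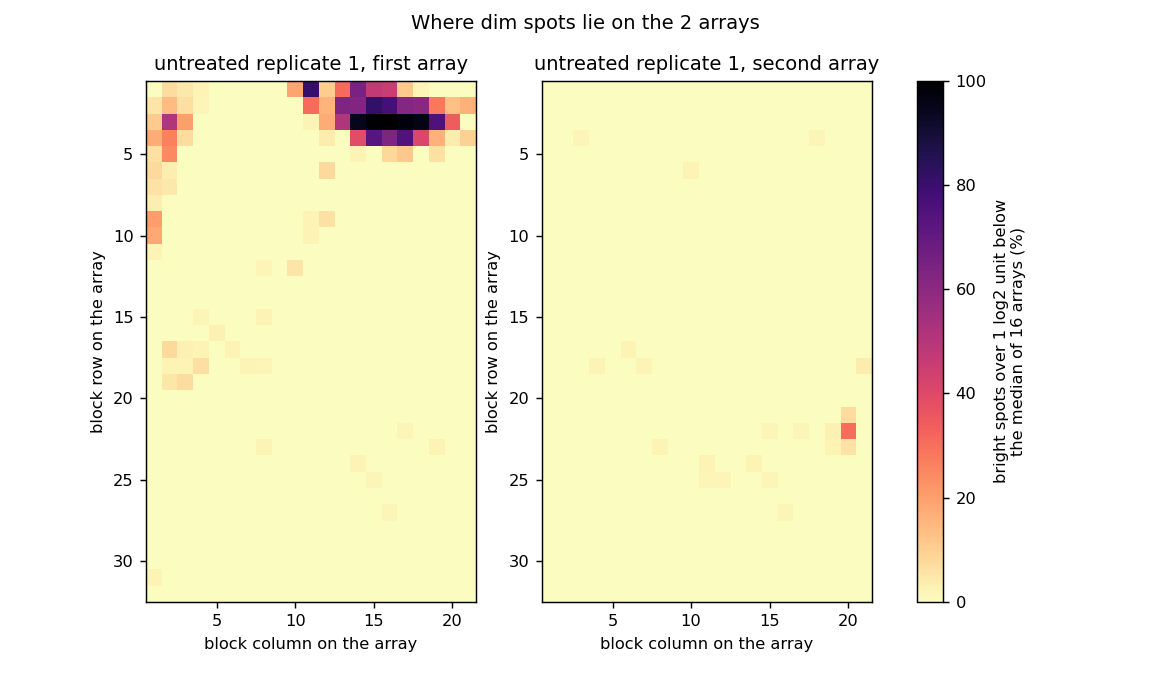
Share of bright spots (%) that lie more than 1 log2 unit below the median of 16 arrays, by block row and block column of the array, for both arrays of untreated replicate 1. The first array has 44 dim blocks, mostly in one patch near the top edge, and the second has 1.

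After 2 h no gene passed the test. Of 18110 features 0 (0%) had an adjusted p under 0.05 in limma with Benjamini-Hochberg adjustment, the smallest adjusted p being 1.00, and 216 (1.19%) had an unadjusted p under 0.05. Of these, 123 (0.679%) were higher at 2 h and 93 (0.514%) lower. The split depended on the scaling and on the patch: 84 of 192 were higher with the dim blocks left out, 102 of 337 with each array divided by its own spread, and 125 of 131 with the normexp background model. In 1150 features (6.35%) the 3 samples at 2 h all lay on one side of the 3 untreated samples, 605 higher (3.34%) and 545 lower (3.01%). The median absolute difference was 0.08, and 67 features differed by more than 1, of which 31 did so with the dim blocks left out. None of the differences below passed the test across all features, and each is given as a value.

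The promoters of Plaur, Ankrd37, Slc18a2 and Cd55 are shown because their genes lead the lists below or carry a textbook element of stress or activity signalling. Each is the 150 bases before the annotated start in RefSeq's GRCr8, 5′ to 3′ on the gene's strand, with the matched motifs in capitals. In Plaur (chr1:89181213-89181362, plus strand) the capitals mark an AP-1 element, the site of Fos and Jun. In Ankrd37 (chr16:53001357-53001506, plus strand) they mark 2 GC boxes and a CACGTG E box that contains the hypoxia response core ACGTG on both strands. In Slc18a2 (chr1:268399871-268400020, plus strand) they mark 2 GC boxes and a cyclic AMP response element, and in Cd55 (chr13:44438102-44438251, minus strand) 2 overlapping GC boxes.
Plaur: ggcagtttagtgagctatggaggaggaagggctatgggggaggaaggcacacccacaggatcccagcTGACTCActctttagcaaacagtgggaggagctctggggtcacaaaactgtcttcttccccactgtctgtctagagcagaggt
Ankrd37: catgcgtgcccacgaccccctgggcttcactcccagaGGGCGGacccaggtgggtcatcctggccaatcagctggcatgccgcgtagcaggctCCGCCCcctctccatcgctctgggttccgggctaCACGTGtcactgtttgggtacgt
Slc18a2: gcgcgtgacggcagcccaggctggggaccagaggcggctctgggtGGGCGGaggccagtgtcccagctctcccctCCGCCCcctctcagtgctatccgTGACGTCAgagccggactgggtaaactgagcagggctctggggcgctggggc
Cd55: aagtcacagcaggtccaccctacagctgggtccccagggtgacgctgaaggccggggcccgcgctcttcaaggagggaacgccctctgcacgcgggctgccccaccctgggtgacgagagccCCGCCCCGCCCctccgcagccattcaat
The motifs searched on both strands were TGAGTCA or TGACTCA for AP-1, TGACGTCA for the cyclic AMP response, ACGTG for the hypoxia response, CACGTG for the E box, GGGCGG for the GC box and TATAAA for the TATA box. Over the same 150 bases of 27457 promoters they occurred in 2.29%, 1.45%, 11.2%, 3.93%, 27.8% and 8.16% respectively. Akr1b8 and Prss30 had 1 GC box each, and Or52b2 and Zc3h12b had no match. These matches describe letters in a window and were not tested as binding sites.

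Among named genes whose samples did not overlap, those with small p-values on the higher side included Plaur, Or52b2, Prss30, 1700013G24Rikl, Ankrd37, Aifm2, Zfp467, H1f8, Taf15, Nip7 and Acbd7. Of these, Plaur, 1700013G24Rikl and H1f8 passed the filter on dim probes only through the 2 h group. Their higher values at 2 h were thus favoured by the filter. Plaur encodes the urokinase receptor, which binds urokinase at the cell surface and starts plasminogen activation there. Its values were -6.75, -6.95 and -6.76 in the untreated samples and -6.06, -5.44 and -5.89 at 2 h. All 3 samples at 2 h lay above all untreated ones, and the mean difference was 1.03 (SE 0.23, unadjusted p = 0.00053 and adjusted p = 1.00 in limma, n = 3 each). It was above background on 1 of 4 untreated arrays and on all 3 arrays at 2 h, and under normexp the difference was 0.40. A second probe for Plaur was above background on none of the 7 arrays.

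Taf15, an RNA-binding protein that takes part in transcription and splicing, had the tightest groups of these genes. Its untreated samples read -0.14, -0.24 and -0.16, and its samples at 2 h 0.45, 0.44 and 0.50. The difference was 0.64 (SE 0.23, unadjusted p = 0.016 in limma), with 0.60 within the first slide and 0.68 within the second. The only 2 h sample on the second slide is replicate 3, so values within that slide, here and below, rest on 1 treated array. On the first slide the untreated side includes the array with the patch. The SE comes from the spread over all 5 groups and is wider than these 6 samples alone would give.

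Ankrd37, an ankyrin repeat protein and textbook HIF target, read -2.88, -3.05 and -3.47 untreated and -2.27, -2.33 and -2.87 at 2 h. The lowest sample at 2 h, replicate 3, lay just above the highest untreated sample. The difference was 0.65 (SE 0.20, unadjusted p = 0.0055 in limma), and it was 0.66 within slide 1 and 0.32 within slide 2. It was the only 1 of 21 measured HIF and hypoxia feedback targets with an unadjusted p under 0.05, beside 1.19% of all features.

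Prss30, a serine protease, read -5.76, -6.06 and -6.19 untreated and -5.45, -4.69 and -5.32 at 2 h, a difference of 0.85 (SE 0.24). Or52b2, an olfactory receptor gene, differed by 0.45 (SE 0.12), and Acbd7, an acyl-CoA binding protein, by 0.55 (SE 0.20). In all 3 genes every sample at 2 h was above every untreated sample. 1700013G24Rikl, a predicted gene, differed by 0.97 (SE 0.28) and was above background on 1 of 4 untreated arrays.

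The remaining genes named above on the higher side lay wholly or partly in the patch. Aifm2, the coenzyme Q reductase that guards against ferroptosis, read -4.55 on array 1 of untreated replicate 1 and -0.76 on array 2, and its difference of 0.86 was 0.23 with the dim blocks left out. For Nip7, a ribosome assembly factor, the difference went from 0.66 to 0.24, and for Zfp467, a zinc finger protein, from 0.50 to 0.14. H1f8, the oocyte linker histone, went from 0.60 to 0.39. The same array also moved other large differences among genes above background on all 7 arrays, though not that of Prss30, which was 0.85 with the dim blocks left out as well. Kiaa1191 read -2.23 and 3.25 on the 2 arrays of untreated replicate 1 and went from 1.02 to 0.11. Elp4, a subunit of the Elongator complex, went from 0.78 to 0.10, and Bcap31, a chaperone of the endoplasmic reticulum, from 0.72 to 0.17. Grin2d, an NMDA receptor subunit, went from 0.81 to 0.48, and of its samples at 2 h (4.94, 5.91 and 4.80) only replicate 2 was far above the untreated samples of 3.88, 4.73 and 4.62.

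**Figure D2:**
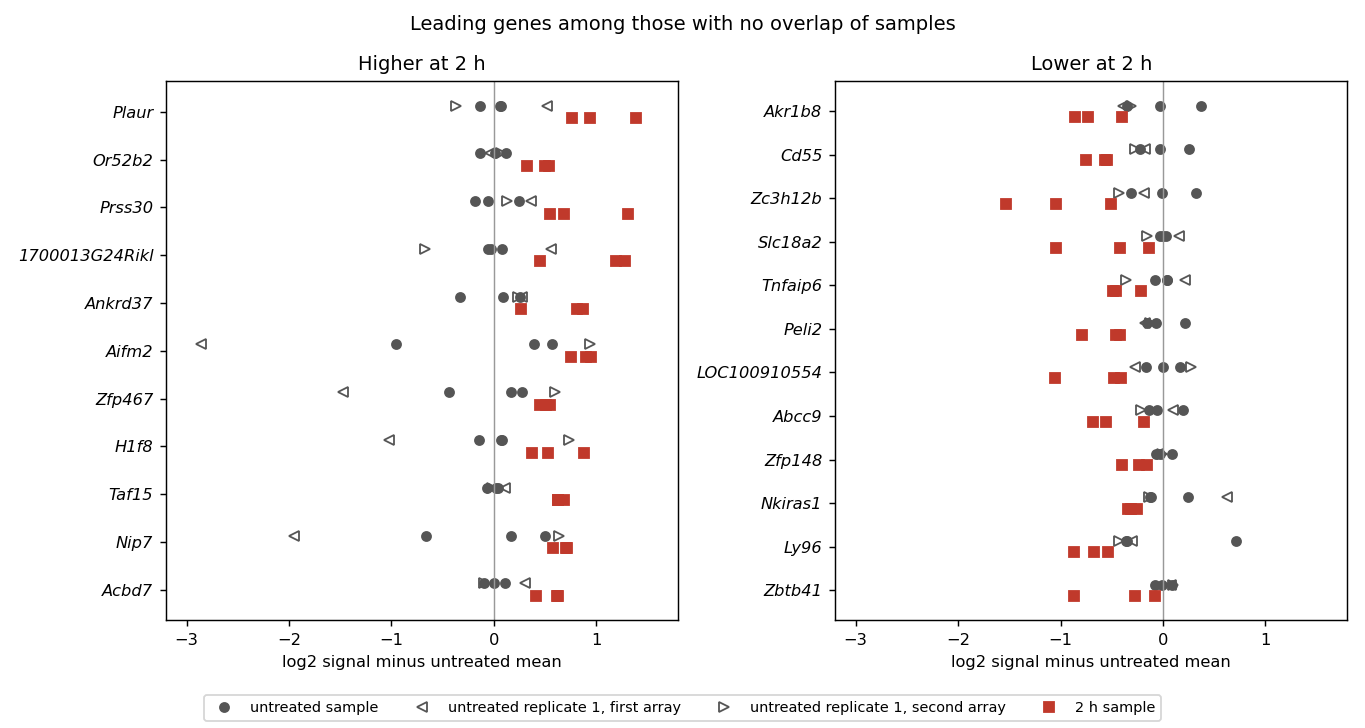
Level of each gene in each sample as log2 signal minus the untreated mean, for the leading genes named in the text in each direction, whose samples did not overlap; filled circles are the 3 untreated samples, open triangles the 2 arrays averaged into untreated replicate 1, and squares the 3 samples at 2 h. The first array of untreated replicate 1 lies far to the left for Aifm2 (0.86 with it, 0.23 with the dim blocks left out), Nip7 and Zfp467, while the arrays of Taf15 lie close together.

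On the lower side the leading genes were Akr1b8, Cd55, Zc3h12b, Slc18a2, Tnfaip6, Peli2, LOC100910554, Abcc9, Zfp148, Nkiras1, Ly96 and Zbtb41. Of these, Cd55, Zc3h12b, LOC100910554 and Abcc9 passed the filter on dim probes only through the untreated group. Their lower values at 2 h were thus favoured by the filter. Cd55 encodes decay-accelerating factor, which protects cells from complement. Its untreated samples read -6.25, -5.78 and -6.06 and its samples at 2 h -6.59, -6.57 and -6.78, so the groups did not overlap. The difference was -0.62 (SE 0.18, unadjusted p = 0.0035 in limma), -0.59 within slide 1 and -0.60 within slide 2. It was above background on 4 of 4 untreated arrays and on 1 of 3 at 2 h, and under normexp the difference was -0.04.

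Slc18a2 encodes the vesicular monoamine transporter, which loads dopamine, serotonin and noradrenaline into vesicles. Its untreated samples lay together at -2.40, -2.44 and -2.38, and those at 2 h spread over -2.55, -2.82 and -3.45. Replicate 3 was the lowest, and the difference of -0.53 (SE 0.18, unadjusted p = 0.0096 in limma) was -0.28 without it. Within slide 1 it was -0.34 and within slide 2, which holds replicate 3, -0.98. Slc18a2 was above background on all 7 arrays. Of 15 measured genes of monoamine transport and metabolism it was the 1 with an unadjusted p under 0.05, beside 1.19% of all features, and 7 of the 15 were higher and 8 lower.

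Akr1b8, an aldo-keto reductase, was above background on all 4 untreated arrays and on none of the 3 at 2 h. Its means were -6.22 untreated and -6.88 at 2 h. With its 2 h values raised to at least the lowest signal above background of any probe on the same array, it was 1.40-fold lower. Zc3h12b, a zinc finger ribonuclease, was 1.18-fold lower in the same way, with means of -6.46 and -7.49. Abcc9, the sulfonylurea receptor of ATP-sensitive potassium channels, was likewise 1.21-fold lower, with means of -6.21 and -6.69. LOC100910554 was 1.03-fold lower, with means of -6.66 and -7.31. These folds carry no sampling error and are not strict bounds, since a probe can fail the flag at a higher signal. Tnfaip6 read -5.88, -6.12 and -6.15 at 2 h and was above background on 1 of 3 arrays. Under normexp Akr1b8, Abcc9 and LOC100910554 had differences of 0.01, 0.05 and 0.01, so their direction turned.

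Tnfaip6, a hyaluronan-binding protein of inflamed tissue, differed by -0.39 (SE 0.13) and turned to 0.04 under normexp. Peli2, a ubiquitin ligase of Toll-like receptor signalling, differed by -0.55 (SE 0.19), and Ly96, which presents endotoxin to the Toll-like receptor TLR4, by -0.70 (SE 0.28). Both were dim at 2 h, and under normexp Peli2 was at -0.01 and Ly96 at 0.06. A second probe for Ly96, above background on 3 of 4 untreated arrays and 2 of 3 at 2 h, went the other way, at 0.54, and without untreated replicate 3 the first probe was at -0.34. Brighter genes on this side had smaller differences: -0.27 (SE 0.10) for the zinc finger factor Zfp148, -0.30 (SE 0.12) for Nkiras1, an inhibitor of NF-kappa-B signalling, and -0.41 (SE 0.16) for Zbtb41. Among genes above background on all 7 arrays, Apba1, an adaptor of presynaptic vesicle release, differed by -0.62 (SE 0.37), Crk, a signalling adaptor, by -0.46 (SE 0.21), Ocm, a calcium buffer, by -0.45 (SE 0.20), and Mgat4c, a glycosyltransferase, by -0.44 (SE 0.18).

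Genes of the drug's known target differed little. Rrm2, the small subunit of ribonucleotide reductase, read 3.19, 3.06 and 2.78 untreated and 3.25, 3.18 and 3.20 at 2 h, a difference of 0.20 (SE 0.17), and the groups overlapped. It was higher in each of the 3 pairs of the same replicate number, by 0.06, 0.12 and 0.42, and without untreated replicate 3 the difference was 0.09. Rrm1, the large subunit, differed by 0.03 (SE 0.13). Of 18 measured genes of deoxynucleotide supply 12 were higher and 6 lower, with a median of 0.03 beside 0.00 over all features. Of the 18, 0 had an unadjusted p under 0.05 in limma, beside 1.19% of all features. Among 20 genes of replication stress and the DNA damage checkpoint 8 were higher and 12 lower, with a median of -0.01. Chek1, the kinase that responds to stalled forks, read -2.91, -3.15 and -3.17 untreated and -3.16, -3.25 and -3.47 at 2 h, a difference of -0.22 (SE 0.12) with overlapping groups. It was lower in each pair, with differences of -0.25, -0.11 and -0.30, and the difference was -0.13 without 2 h replicate 3 and -0.14 without untreated replicate 1. Of 20 p53 targets 12 were higher and 8 lower, with Cdkn1a, the cell cycle inhibitor p21, at 0.19 (SE 0.19) and Mdm2, the ubiquitin ligase of p53, at -0.07 (SE 0.13). None of the 20 checkpoint genes or the 20 p53 targets had an unadjusted p under 0.05 in limma, beside 1.19% of all features. None had samples that did not overlap, beside 6.35% of all features.

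Immediate early genes did not move together. Of 36 measured, 21 were higher and 15 lower, with a median of 0.01. Of the 36, 0 had an unadjusted p under 0.05 in limma, beside 1.19% of all features. The samples did not overlap for 1 higher and 2 lower, 8.33% beside 6.35% of all features. The higher one was Fos, a subunit of AP-1, which read -4.78, -4.66 and -4.75 untreated and -4.43, -4.39 and -4.59 at 2 h, a difference of 0.26 (SE 0.17). Egr1, a zinc finger factor induced by synaptic activity, was at -0.27 (SE 0.19) with untreated values of -2.48, -2.43 and -2.00 and values at 2 h of -2.68, -2.50 and -2.54, so that untreated replicate 3 set most of the gap, and without it the difference was -0.12. Fosb, another AP-1 subunit, read -2.46, -2.28 and -2.26 untreated and -2.42, -1.96 and -1.65 at 2 h, a difference of 0.32 (SE 0.25) with overlapping groups. Its pairs differed by 0.05, 0.31 and 0.60, and without 2 h replicate 3 the difference was 0.14. Arc, a regulator of AMPA receptor uptake, differed by -0.01 (SE 0.11), and Bdnf, the brain-derived neurotrophic factor, by -0.18 (SE 0.15). Gdnf, a growth factor of the glial line, differed by -0.68 (SE 0.38) with overlapping groups. It passed the filter on dim probes only through the untreated group, which favoured a lower value at 2 h.

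The 21 HIF targets, Ankrd37 included, had a median of 0.04, with 13 higher, and Vegfa, the endothelial growth factor, was at 0.04 (SE 0.15). Of 24 genes of glycolysis 11 were higher. The 2 largest differences, Pgk1 at 0.68 and Aldoc at 0.44, were 0.12 and 0.16 with the dim blocks left out. Of 31 NRF2 and antioxidant genes 16 were higher, with Hmox1, heme oxygenase, at 0.03 (SE 0.22) and Nqo1, a quinone reductase, at 0.20 (SE 0.36). Gsta4, a glutathione transferase, went from 0.62 to 0.14 and Nqo1 from 0.20 to -0.05 with the dim blocks left out. In the integrated stress response Atf4, its main transcription factor, was at 0.08 (SE 0.15) and Ddit3, its proapoptotic target CHOP, at 0.01 (SE 0.17). Phgdh, which starts serine synthesis, went from 0.47 to 0.08 with the dim blocks left out. Of 20 genes of nitric oxide and cyclic GMP signalling 9 were higher, with Nos1, the neuronal nitric oxide synthase, at 0.05 (SE 0.27). Gucy1a2, a subunit of the nitric oxide receptor guanylyl cyclase, was lower: it read -3.00, -3.11 and -3.00 untreated and -3.32, -3.47 and -3.63 at 2 h, a difference of -0.44 (SE 0.21) without overlap. Tfrc, the transferrin receptor that takes up iron, differed by -0.05 (SE 0.14).

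**Figure D3:**
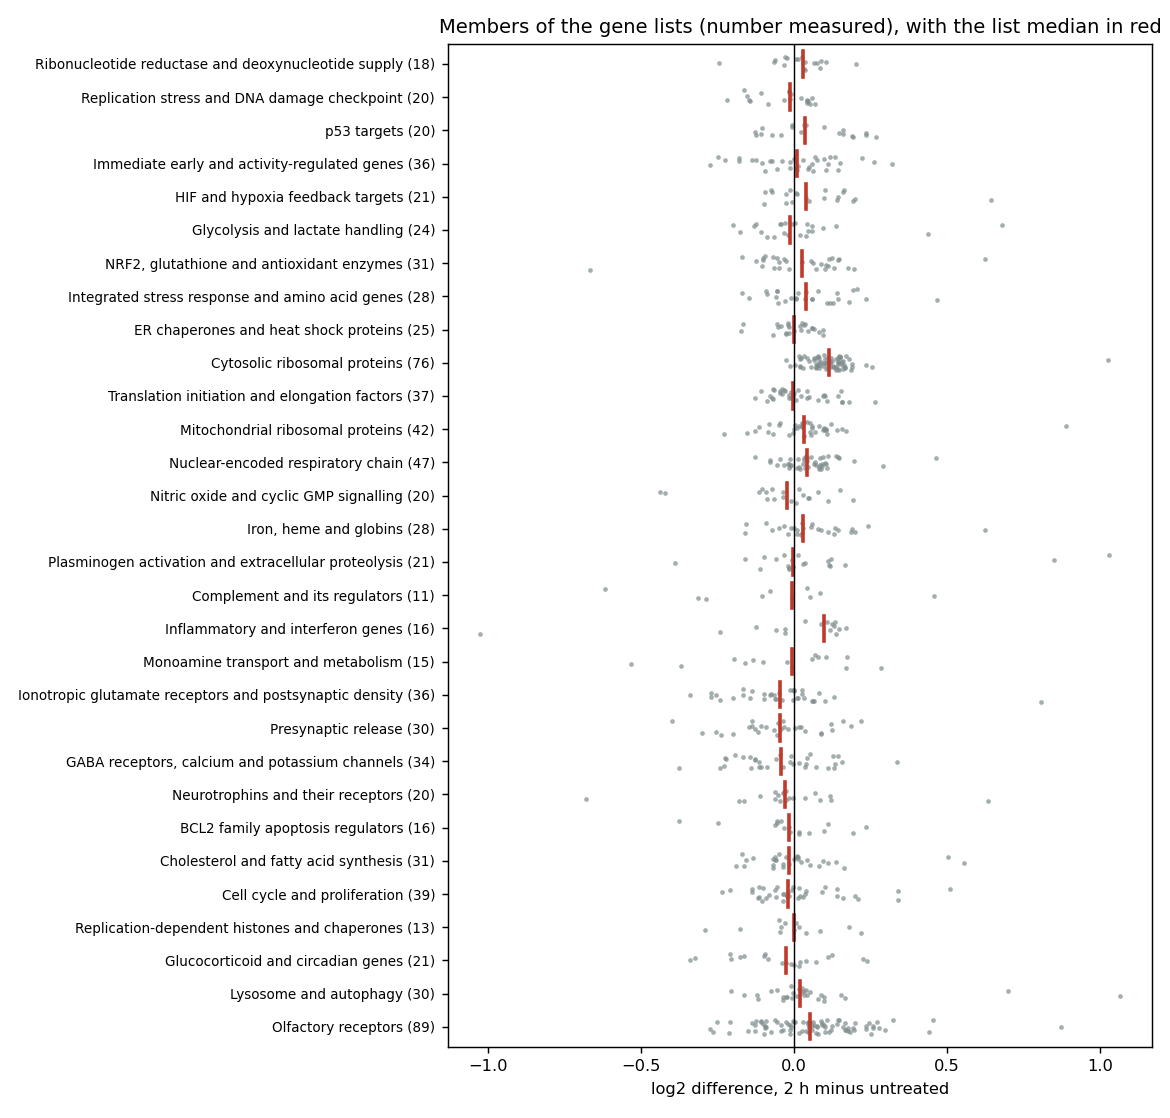
log2 difference (2 h minus untreated) of every measured member of each gene list, 1 point a gene, with the list median as a red bar, the median over all 18110 features as a vertical line and the number of members in brackets. List medians lie within 0.12 of 0, and single points beyond 0.6 include Pgk1 (0.68), Gsta4 (0.62) and others that shrink when the dim blocks are left out.

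The list with the most one-sided members was that of the cytosolic ribosomal proteins, the structural proteins of the ribosome. Of 76 measured genes 74 had a higher mean at 2 h, beside 50.5% of all features, with a median difference of 0.11. The 2 lower ones were Rpl5 at -0.01 and Rpl35a at -0.03. None of the 76 had an unadjusted p under 0.05 in limma, and in 8 of them, beside 3.34% of all features, the samples at 2 h all lay above the untreated ones. For Rpsa, a protein of the small subunit, the untreated samples read 5.31, 5.38 and 5.31 and those at 2 h 5.43, 5.53 and 5.75, a difference of 0.24 (SE 0.14), which was 0.14 without 2 h replicate 3. Rpl22, of the large subunit, read 5.31, 5.33 and 4.99 untreated and 5.36, 5.47 and 5.36 at 2 h, a difference of 0.19 (SE 0.14), which was 0.08 without untreated replicate 3. Rpsa and Rpl22 were named after their values were seen. Rps15 differed by 1.03, and by 0.14 with the dim blocks left out, since it read 0.52 on the first and 5.84 on the second array of untreated replicate 1.

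The shift of the ribosomal protein genes was uneven over samples. Relative to each gene's untreated mean, their median level was 0.01, 0.06 and -0.06 in untreated replicates 1, 2 and 3 and 0.01, 0.13 and 0.20 at 2 h. Replicate 1 at 2 h lay within the untreated range, and the other two lay above it. Taken by replicate number the median difference was 0.00, 0.07 and 0.27, and 31 of 76 members (40.8%) were higher in every pair, beside 2450 of 18110 features (13.5%). Within slide 1 the median was 0.01 with 44 of 76 higher, beside -0.02 over all features. Within slide 2, with its 1 sample at 2 h, it was 0.26 with 74 of 76 higher, beside 0.04 over all features. Under quantile normalization it was 0.01 with 41 of 76 higher, beside -0.01 over all features. Of these genes 75 lie in the brightest 10% of features. The other 1736 features of that decile had a median difference of 0.06, with 75.5% higher. The part of signal strength in the shift was not tested.

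**Figure D4:**
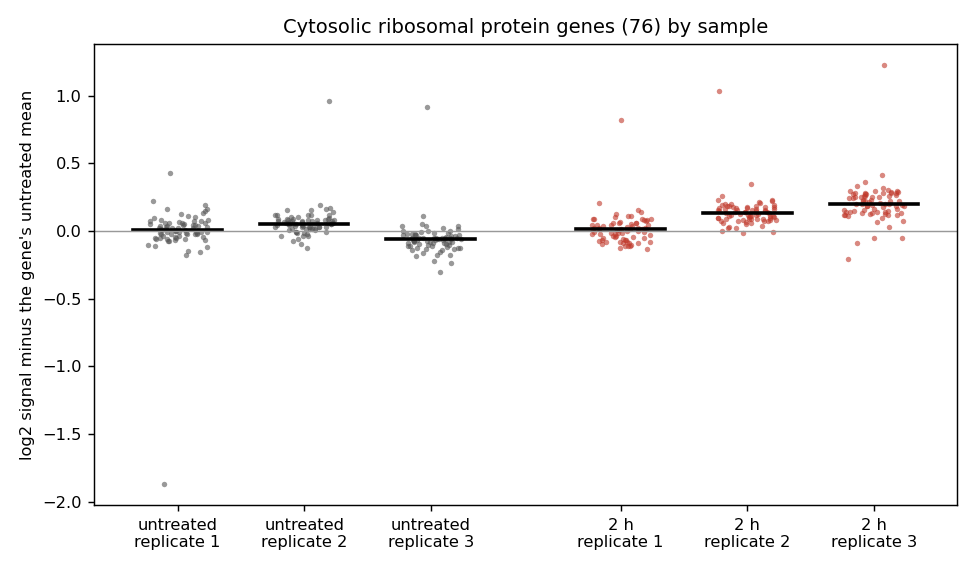
log2 signal of the 76 cytosolic ribosomal protein genes minus each gene's untreated mean, by sample, with the median as a black bar. The medians at 2 h are 0.01, 0.13 and 0.20, and replicate 1 lies within the untreated range; the lone points far from the rest belong mostly to Rps15, which lay in the dim patch of untreated replicate 1.

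Many ribosomal protein genes start transcription in a run of pyrimidines, which is why a short motif was looked for at their start sites. In the window from 10 bases before to 20 bases from the annotated start, CTTTC on the gene's strand was found in 25 of 60 such genes in the RefSeq table (41.7%) and in 936 of 27457 promoters (3.41%). Of the 8 genes without overlap, 6 had an entry, and Rpl22 and Rps21 held the motif, here in capitals at chr5:168117951-168117980 and chr3:187724028-187724057 of GRCr8 (both plus strand), while Rpsa at chr8:128728869-128728898 (plus strand), Rps3, Rpl4 and Rpl38 did not. Rps20 and Rps25 were not among the entries.
Rpl22: gcgcccccctccCTTTCtgcctcctctgcc
Rps21: agccacttcCTTTCtgtgttctccgtagac
Rpsa: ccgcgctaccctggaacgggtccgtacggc

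Other parts of the protein synthesis and energy machinery moved less. Of 42 mitochondrial ribosomal proteins 31 were higher, with a median of 0.03, and the largest difference, that of Mrpl18, went from 0.89 to 0.14 with the dim blocks left out. Among 47 respiratory chain genes 35 were higher (74.5%), with a median of 0.04, which was -0.01 within slide 1, 0.15 within slide 2 and -0.01 under quantile normalization. Of the 47, 32 lie in the brightest signal decile, where 76.4% of all features were higher, with a median of 0.06. The part of signal strength was not tested. Ndufa10, a subunit of complex I, differed by 0.46 and, with the dim blocks left out, by 0.19. Translation factors had 17 of 37 higher.

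Synaptic lists leaned the other way. Of 36 ionotropic glutamate receptor and postsynaptic genes 22 were lower, with a median of -0.04. Of the 36, 6 lay wholly below the untreated samples, beside 3.01% of all features, while 1, Grin2d, lay wholly above. With the dim blocks left out the groups of Grin2d overlapped, at a difference of 0.48. By replicate number 12 of the 36 (33.3%) were lower in every pair, beside 13.8% of all features. Of the 36 genes 24 lie in signal deciles 3 to 7, where 15 of the 24 (62.5%) were lower beside 55.8% of all features there, and the part of signal strength was not tested. Excitatory neuron markers were also lower in 6 of 8, with a median of -0.07. Of these 8, 0 had an unadjusted p under 0.05 in limma, beside 1.19% of all features, and 0 had samples that did not overlap, beside 6.35%. The longer list of neuron markers had 9 of 18 higher and 9 lower, with a median of -0.01. GABAergic interneuron markers were lower in 7 of 11, with a median of -0.0006. Grin1, the obligate NMDA receptor subunit, read -3.92, -4.16 and -3.86 untreated and -4.59, -4.20 and -4.16 at 2 h, a difference of -0.34 (SE 0.17), which was -0.20 without 2 h replicate 1. Nlgn3, a postsynaptic adhesion protein, read -4.42, -4.35 and -4.34 untreated and -4.64, -4.55 and -4.73 at 2 h, a difference of -0.27 (SE 0.17). In both genes the groups did not overlap, though for Grin1 the gap between them was narrow. The 1 of the 36 members with an unadjusted p under 0.05 in limma, beside 1.19% of all features, was Nlgn1, another adhesion protein. It was at -0.24 (SE 0.11), and at -0.15 without 2 h replicate 3, and was named after its values were seen. Presynaptic release genes were lower in 19 of 30 (median -0.05), and GABA receptors with calcium and potassium channels in 21 of 34 (median -0.04). The lowest of the latter was the calcium channel subunit Cacnb4 at -0.37 (SE 0.17). Samples did not overlap in 2 of the 30 (6.67%) and 2 of the 34 (5.88%), beside 6.35% of all features. In signal deciles 3 to 7, 11 of 14 presynaptic genes (78.6%) were lower and 10 of 20 of the channel list (50%), beside 55.8% of all features there. Under normexp the 3 medians turned to 0.00, 0.01 and 0.02 in the order postsynaptic, presynaptic and channels, beside 0.04 over all features. Within slide 2, with its 1 sample at 2 h, the postsynaptic and presynaptic ones turned to 0.09 and 0.08, beside 0.04 over all features.

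Markers of cell types checked what the cultures held. Of 18 neuronal markers on the array 17 were above background on every untreated array and 18 on every array at 2 h. Tubb3, neuronal tubulin, read 5.29, 5.56 and 5.64 untreated and 5.16, 5.48 and 5.75 at 2 h, with a difference of -0.03 (SE 0.17). Astrocyte markers were above background on every array of both groups for 19 of 20, with Gfap, the astrocyte filament protein, at -0.03 (SE 0.29), so these cultures also held RNA of glia. Of 19 astrocyte markers tested 13 were higher at 2 h, with a median difference of 0.07 and of -0.11, 0.13 and 0.15 in the 3 pairs. With the dim blocks left out 12 of the 19 were higher, with a median of 0.03. Of 11 radial glia and progenitor markers 9 were higher, with a median of 0.06, in both cases. The median level of the astrocyte list ranged from 1.49 to 1.65 in the untreated samples and from 1.27 to 1.71 at 2 h, and that of the neuronal list from 1.66 to 1.74 and from 1.57 to 1.78. Of 16 microglial markers 8 were above background on every untreated array and 10 on every array at 2 h, and Ptprc, Itgam and C1qc on none. In bulk RNA fewer cells of a type and less RNA per cell cannot be told apart. Spi1, a transcription factor of microglia, had the largest difference of any marker: it read -6.58, -8.52 and -5.96 untreated and -5.23, -4.40 and -4.78 at 2 h, a difference of 2.22 (SE 0.83). It was above background on 2 of 4 untreated arrays, the difference was 0.69 under normexp and 1.47 without untreated replicate 2, and the other 10 measured microglial markers lay between -0.24 and 0.12.

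The later times used the same untreated samples, so their differences are given side by side and not as separate evidence. Plaur was at 1.03 at 2 h and at 0.19, 0.65 and 0.48 at 6, 12 and 24 h. Ankrd37 was at 0.65, 0.69, 0.73 and 0.73 at the 4 times, and Taf15 at 0.64, 0.54, 0.62 and 0.14. Cd55 was at -0.62, -0.25, -0.65 and -0.39, and Slc18a2 at -0.53, 0.00, -0.05 and -0.11. Plaur was above background on 0 of 3 arrays at 6 and at 24 h, and Cd55 on 0 of 3 at 12 h, so their values there are from spots not well above background. Fos was at 0.26 at 2 h and at -0.04, 0.01 and -0.02 later. Ankrd37 thus stayed close to its 2 h level at each later time, while Slc18a2 and Fos lay near the untreated level at all 3.

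**Figure D5:**
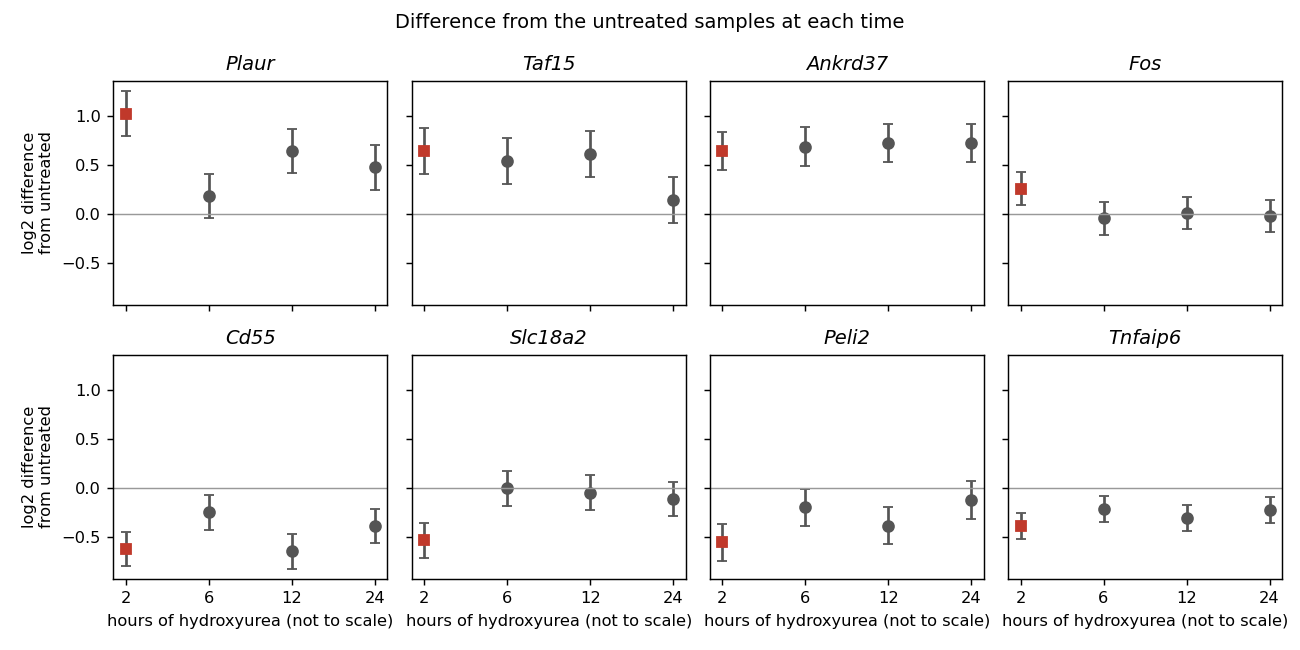
log2 difference from the same 3 untreated samples at 2, 6, 12 and 24 h (evenly spaced, not to scale) with standard errors from the fit over 15 samples; the square marks 2 h. Ankrd37 lies between 0.65 and 0.73 at all 4 times, and Slc18a2 is at -0.53 at 2 h and between -0.11 and 0.00 later.

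A direct comparison of 2 h with the mean of 6, 12 and 24 h needs no untreated sample. It also gave 0 of 18110 features (0%) with an adjusted p under 0.05 in limma, and 177 (0.977%) with an unadjusted p under 0.05, of which 59 (0.326%) were higher and 118 (0.652%) lower at 2 h. The named genes with the smallest p on the higher side were Hoxc5, a homeobox factor, at 0.78 (SE 0.21), Plaur at 0.59 (SE 0.19), 1700013G24Rikl at 0.76 (SE 0.23), Inpp4b, a lipid phosphatase, at 0.58 (SE 0.19) and Mrap2, an accessory protein of melanocortin receptors, at 0.35 (SE 0.12). On the lower side they were Vom2r18, a pheromone receptor, at -0.40 (SE 0.10), Pla2g4b, a phospholipase, at -0.36 (SE 0.09), Akr1b8, Slc18a2 at -0.48 (SE 0.14) and Zap70, a kinase of T cell receptor signalling, at -0.37 (SE 0.11). Akr1b8 was above background on 0 of 3 arrays at 2 h and on 6 of 9 later. With its 2 h values raised as above, it was 1.27-fold lower at 2 h than later. For Slc18a2 the means were -2.94 at 2 h and -2.46 later, beside -2.40 untreated, so the 2 h samples were low against both. For Vom2r18 the means were -6.04 at 2 h, -5.64 later and -5.86 untreated, so most of its difference lay on the later side. Plaur had a mean of -5.79 at 2 h, -6.39 later and -6.82 untreated, and Akr1b8 of -6.88, -6.35 and -6.22. At the later times Plaur was above background on 2 of 9 arrays, and Hoxc5 and 1700013G24Rikl on 3 of 9 each. Later values of these genes are thus mostly from spots not well above background, while Inpp4b and Mrap2 were above it on 9 of 9. Plaur, Hoxc5 and 1700013G24Rikl passed the filter on dim probes only through the 2 h group. The filter thus favoured higher values at 2 h than later for them.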

How the data were processed

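RNA from each sample was labelled with Cy3 and hybridised to 1-colour Agilent rat arrays. Per the file headers, the scanner files as deposited come from Feature Extraction 11.5.1.1 (protocol GE1_1105_Oct12, design on rat build rn4) and give an intensity per spot after background subtraction. The series values deposited by the authors are a score per array, centred and divided by the array's SD, and served as an alternative.

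Control and outlier spots were left out, spots of a probe averaged, and log2 values centred on the 75th percentile of each array. A gene took its brightest probe, and 18758 of 30367 probes matched 15715 RefSeq symbols without versions. A probe was kept where 1 or more groups had it above background on each of their arrays. The 15 samples were fitted in limma 3.58.1 (R 4.3.3, lmFit and eBayes, two-sided, 10 residual and 3.56 prior degrees of freedom) without covariates, with Benjamini-Hochberg adjustment over 18110 features and a threshold of 0.05. The functions were tested on simulated data. Normexp (offset 50) used the median spot signal.

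Genes named were the 12 with the smallest p in each direction among those whose samples did not overlap, the 6 with the largest differences in each direction among those also above background on all 7 arrays, the 5 with the smallest p in each direction against the later times, members among the 2 highest and 2 lowest of a list, and a set of genes of the drug's known targets; of that set Rrm2b, Npas4 and Rbfox3 had no tested feature, and 1 gene that the rules name is not reported here. The members, rules and lists were chosen with earlier results of these data known. Replicate numbers are shared by the groups, and same-numbered samples deviated together from their group means (correlations 0.23, 0.20 and 0.43 over features, against -0.32 to 0.04 for other pairs). The numbers were therefore taken to pair the samples in the pair differences and the replicate block. SEs and p-values of the main fit use no such term. Replicates 2 of both groups share slide 1 and replicates 3 slide 2, so replicate number and slide are partly confounded. Slide 1 held untreated replicate 2, the first array of untreated replicate 1 and 2 h replicates 1 and 2, and slide 2 the rest. Alternatives covered scaling, background, filters, slides, the replicate block, single samples left out and dim blocks left out.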

Additional observations from a re-analysis of the deposited data

How the results depend on the processing

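No feature passed an adjusted p of 0.05 in limma under any of the 26 alternatives for 2 h against untreated, or under the 18 of them run for 2 h against the later times; for 2 h against untreated the smallest adjusted p ranged from 0.368 with array weights to 1.00. The count with an unadjusted p under 0.05, 216, was 131 with normexp, 337 with each array divided by its own spread, 326 with the deposited scores, 673 without the filter on dim probes, 381 with only the 2 groups in the fit and 1074 with array weights, and 116 (without 2 h replicate 2) to 490 (without untreated replicate 2) with 1 sample left out, including 450 without 2 h replicate 1 and 417 without untreated replicate 3. The features without overlap, 1150, were 1826 without the filter and 2051 to 3660 with 1 sample left out, where fewer samples have to separate. With the replicate number as a block the pairing gave 267 at an unadjusted p under 0.05 over all 15 samples and 771 over the 2 groups alone, and the block changed no call. The deposited scores of 24 h replicates 1 and 3 match each other's scanner file. With these 2 exchanged the block gave 301. Without 12 h replicate 3, the sample with 126 dim blocks, the count in the main fit was 308.

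Of 2132 values of 82 named genes 2054 kept their direction and 78 turned, in 22 genes. Normexp turned Akr1b8 to 0.014, Tnfaip6 to 0.045, LOC100910554 to 0.0079, Abcc9 to 0.054, Ly96 to 0.055, Vom2r18 to 0.052, Pla2g4b to 0.090, Zap70 to 0.059, Ddit3 to -0.0092, Gfap to 0.00025 and Rpl35a to 0.17. Dividing each array by its spread turned Rrm1 to -0.063, Hmox1 to -0.00067, Nos1 to -0.051, Tubb3 to 0.049, Rpl5 to 0.049 and Rpl35a to 0.071, and the deposited scores Rrm1 to -0.077, Nos1 to -0.049, Tfrc to 0.0035, Tubb3 to 0.083, Rpl5 to 0.073 and Rpl35a to 0.10. Quantile normalization turned Ddit3 to -0.013. Array weights turned Vegfa to -0.047, Ddit3 to -0.067, Rpl5 to 0.016 and Rpl35a to 0.048. Slide as a block turned Arc to 0.00082, Hmox1 to -0.0016, Tubb3 to 0.0050 and Gfap to 0.058. Within slide 1 the turned values were Rrm1 at -0.077, Arc at 0.068, Ddit3 at -0.055, Nos1 at -0.075, Gfap at 0.065 and Rpl38 at -0.045, and within slide 2 Vegfa at -0.053, Hmox1 at -0.21, Nqo1 at -0.25, Tubb3 at 0.26, Gfap at 0.23 and Rpl35a at 0.17. From the slide 1 array of untreated replicate 1 alone they were Rrm1 at -0.045 and Ddit3 at -0.0045, and from its slide 2 array alone Vegfa at -0.011, Nqo1 at -0.040, Rpl5 at 0.011 and Rpl35a at 0.16. With the dim blocks left out, also with the replicate block, Nqo1 was at -0.054. With 1 sample left out the ranges that crossed 0 were -0.014 to 0.081 for Rrm1, -0.10 to 0.057 for Arc, -0.062 to 0.15 for Vegfa, -0.18 to 0.19 for Hmox1, -0.13 to 0.50 for Nqo1, -0.13 to 0.10 for Ddit3, -0.21 to 0.40 for Nos1, -0.12 to 0.015 for Tfrc, -0.18 to 0.12 for Tubb3, -0.23 to 0.19 for Gfap, -0.084 to 0.086 for Rpl5, -0.18 to 0.19 for Rpl35a and -0.0034 to 1.65 for Tfe3. Leaving out 1 sample moved the difference of 56 of the 82 genes by over 1.5 times. Of 1066 list medians 889 kept their sign. Apart from the dim patch, the cause of these changes was not tested.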

Other observations

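Olfactory receptor genes were higher at 2 h in 57 of 89 measured members, with a median of 0.05, and in 5 of them, beside 3.34% of all features, every sample at 2 h lay above every untreated one, with 0 wholly below. Over both directions these 5 are 5.62%, beside 6.35% of all features. The lean lay mostly in pair 1: by replicate number 77, 41 and 48 of the 89 were higher, with medians of 0.17, -0.027 and 0.026. The largest difference was that of Or6b13, at 0.87 (SE 0.36), and 0.73 with the dim blocks left out. Or6b13 passed the filter on dim probes only through the 2 h group, which favoured a higher value there. Glucocorticoid and circadian genes were lower in 12 of 21, and 3 of them, beside 3.01% of all features, lay wholly below the untreated samples. One was Clock, a core factor of the circadian oscillator, which read -4.40, -4.02 and -4.53 untreated and -4.73, -4.64 and -4.55 at 2 h, a difference of -0.32 (SE 0.21), which was -0.18 without untreated replicate 2. Zbtb16, a glucocorticoid-induced zinc finger factor, was at -0.34 (SE 0.21) with overlapping groups, and at -0.20 without untreated replicate 3.

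Among 11 measured complement genes 4 were higher and 7 lower, with Cfb, complement factor B, at 0.46 (SE 0.26), 0.28 without untreated replicate 3, and Cd55 at the other end. BCL2 family genes were higher in 7 of 16, cholesterol and fatty acid synthesis genes in 15 of 31, and chaperones and heat shock proteins in 12 of 25. In limma 0 members of these 3 lists had an unadjusted p under 0.05, beside 1.19% of all features. Of 30 lysosome and autophagy genes 17 were higher. Their largest difference, 1.07 for Tfe3, a transcription factor of lysosomal genes, was 0.01 with the dim blocks left out, since it read -5.13 on the first and 1.22 on the second array of untreated replicate 1. Over all features 609 were more than 1 log2 unit lower and 92 more than 1 higher on the first than on the second of these arrays, which are titled as the same replicate and its repeat.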
